A study of Rattus norvegicus with 6 samples.

Results

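Adenylyl cyclases are the membrane enzymes that make cyclic AMP (cAMP) from ATP. The isoforms described here are the 9 genes listed as Adcy1 to Adcy9, chosen by gene symbol from the 37991 genes of the expression table, and each symbol matched 1 gene. All 9 had counts in every library and all 9 were among the 18134 genes with enough counts to be tested. RNA was sequenced from the healed Achilles tendon of male Sprague-Dawley rats, an outbred strain, aged 8 weeks when the tendon was cut. The tendon received a complete tenotomy in both groups. The PM group (3 libraries) inhaled PM2.5, a fine particulate matter that the study collected at a coal-fired power plant, in 3 sessions each week over 6 weeks. The non-PM group (3 libraries) had no such exposure. The comparison asks which genes differ in healing tendon after the exposure. The tendon was taken en bloc, so each library mixed all cell types of the piece, and fewer cells of a type cannot be told apart from less RNA per cell.

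Each membrane adenylyl cyclase is activated by the G protein alpha subunit Gs, which receptors for hormones and mediators switch on. The isoforms differ in their other inputs. Adcy1, Adcy3 and Adcy8 can be stimulated by calcium and calmodulin. Adcy2, Adcy4 and Adcy7 respond to G protein beta-gamma subunits together with Gs. Adcy5 and Adcy6 are inhibited by calcium and by the Gi alpha subunits, and Adcy9 stands apart by its weak response to the plant compound forskolin. The cAMP they make activates protein kinase A, which phosphorylates the transcription factor CREB.

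Library totals ran from 46357986 to 62298837 counts. All 10 tendon markers, among them Scx, Tnmd and Col1a1, were detected, and their summed level (FPKM, fragments corrected for transcript length and library size) was 1114 in non-PM 3 and between 6960 and 12900 in the other 5 libraries. Skeletal muscle genes summed to 43130 FPKM in non-PM 3, the highest of the 6 libraries, and to 8712 FPKM in non-PM 2, the lowest. Of the 20 genes 12 were above 0 in log2 fold change and 3 were higher by the criterion given below. Over all genes tested 49.5% were above 0 and 1.47% were higher by that criterion. No marker of any list used here was at 0 in all libraries. Non-PM 3 therefore stood apart by its few tendon transcripts. Its many muscle transcripts were not particular to it, since the muscle sum of PM 2 was 36480 FPKM.

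The promoters of the 2 isoforms that passed the criterion described below, Adcy4 and Adcy5, are shown. CREB, a target of the cAMP pathway, has the cAMP response element TGACGTCA as its best known DNA element. The sequences are those of RefSeq on the GRCr8 build, from 250 bases before to 50 bases after the annotated gene start, and they were found for 6 of the 9 isoforms (Adcy1, Adcy2, Adcy4, Adcy5, Adcy7 and Adcy9). Capitals mark GC boxes (GGGCGG or its complement CCGCCC) and the short form of the cAMP response element (TGACG or its complement CGTCA). The Adcy4 promoter held neither, so it has no capitals.
Adcy4 promoter, chr15:33251977-33252276, minus strand: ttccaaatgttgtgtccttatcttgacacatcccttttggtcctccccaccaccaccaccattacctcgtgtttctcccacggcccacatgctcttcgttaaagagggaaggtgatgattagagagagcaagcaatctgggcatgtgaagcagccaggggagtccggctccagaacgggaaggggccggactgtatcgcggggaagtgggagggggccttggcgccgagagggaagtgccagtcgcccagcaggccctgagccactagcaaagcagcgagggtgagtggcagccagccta
Adcy5 promoter, chr11:79123294-79123593, minus strand: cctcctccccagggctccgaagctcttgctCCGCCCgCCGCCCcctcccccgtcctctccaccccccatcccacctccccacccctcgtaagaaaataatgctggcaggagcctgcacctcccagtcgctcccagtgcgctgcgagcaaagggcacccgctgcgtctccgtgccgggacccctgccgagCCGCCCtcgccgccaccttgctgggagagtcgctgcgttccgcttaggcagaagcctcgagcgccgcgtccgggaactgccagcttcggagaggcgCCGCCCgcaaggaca
The full element TGACGTCA, which contains the short form, was in none of the 6 promoters and in 1.83% of the 33469 rat promoters of the same length. The short form was in 2 of the 6, against 21.2% of all promoters, searched on both strands. The Adcy7 match began 35 bases after the annotated start and the Adcy9 match 60 bases before it, and both are shown with 30 bases of sequence.
Adcy7 window, chr19:34936495-34936524, minus strand: cttcctaaatgagggTGACGaaggccccaa
Adcy9 window, chr10:11645770-11645799, plus strand: tcggcccgcgcgcttTGACGcaccgggcgc
GC boxes were in 3 of the 6 promoters, against 33.1% of all promoters, with 7 matches in Adcy1, 4 in Adcy5 and 3 in Adcy2. The promoters of Adcy4 (59.0% G and C) and Adcy7 (58.3%) were less rich in G and C than those of Adcy1 (84.7%), Adcy9 (74.0%), Adcy2 (72.7%) and Adcy5 (70.7%), and the median over all promoters was 51.7%. These matches are a description of the sequence and were not tested for function.

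Adcy6 and Adcy4 were the most abundant isoforms of the tendon. Mean levels over the 6 libraries were 13.3 FPKM for Adcy6, 13.2 for Adcy4, 7.65 for Adcy3, 6.96 for Adcy2, 6.32 for Adcy7, 4.43 for Adcy5 and 3.24 for Adcy9. The neuronal isoforms Adcy1 (0.378 FPKM) and Adcy8 (0.0983 FPKM) were near the lower end. Of all genes with any count, 82.6% had a lower mean FPKM than Adcy6, while for Adcy8 the figure was 29.3%. The order of neighbours was not firm everywhere. Adcy6 exceeded Adcy4 in 3 of 6 libraries, Adcy3 exceeded Adcy2 in 4 of 6 and Adcy2 exceeded Adcy7 in 4 of 6, so these neighbours did not differ beyond their spread. Adcy4 exceeded Adcy3, Adcy7 exceeded Adcy5, Adcy9 exceeded Adcy1 and Adcy1 exceeded Adcy8 in all 6 libraries, and Adcy5 exceeded Adcy9 in 5 of 6.

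**Figure D1:**
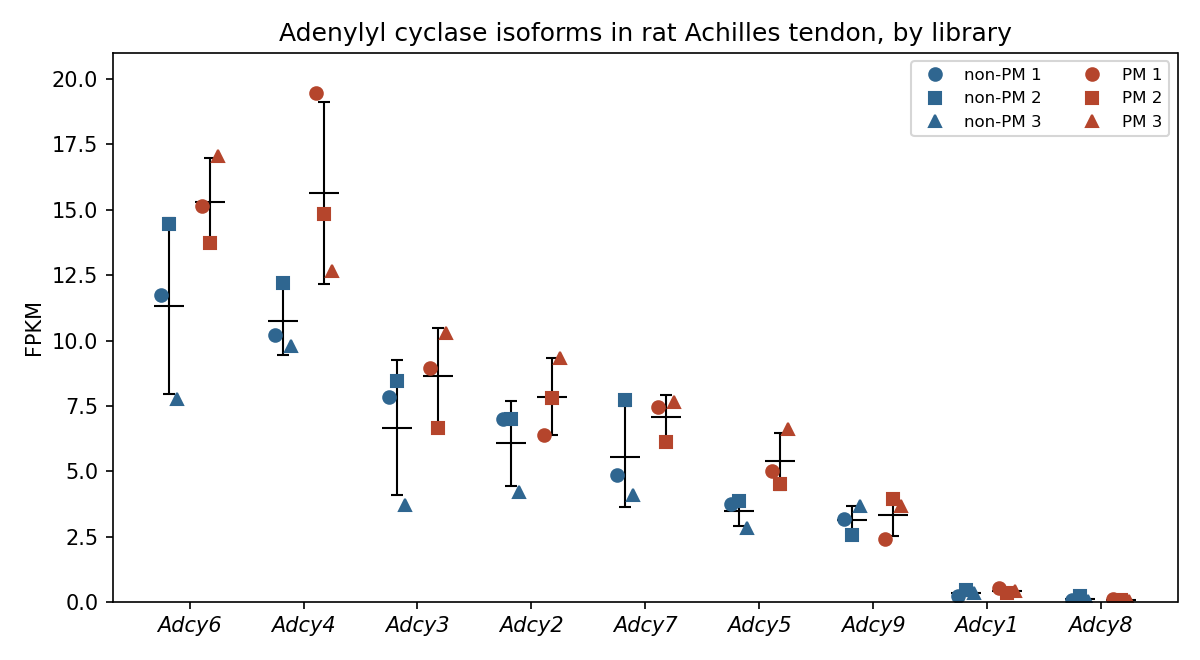
Level (FPKM, linear axis) of each adenylyl cyclase isoform in the 3 non-PM (blue) and 3 PM (red) libraries, with marker shape giving the replicate number, horizontal bars the group mean and error bars the SD (n = 3). Adcy6 and Adcy4 lie highest, the PM points of Adcy5 and Adcy4 lie above all non-PM points in FPKM, and Adcy1 and Adcy8 lie near 0. In CPM the groups of Adcy4 overlap. The share of all genes without overlap was counted in CPM only (4.77% with every PM library above).

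Compared to the non-PM group, 7 of the 9 isoforms had a log2 fold change above 0 in the PM group and 2 below, with a median of 0.32 beside -0.004 over all genes tested. Adcy5 and Adcy4 were higher by the criterion of the study, which asks for an unadjusted p under 0.05 and a change of 1.2-fold or more, and 7 isoforms did not pass it. This criterion called 1.47% of all genes tested higher and 1.49% lower (edgeR), and 2.96% had an unadjusted p under 0.05. Over all genes 49.5% had a log2 fold change above 0. After adjustment over all genes by the Benjamini-Hochberg method no isoform passed in edgeR, where the smallest adjusted p of an isoform was 0.942 and 0.0% of genes passed, while 537 genes had an unadjusted p under 0.05 and DESeq2 called 13 genes (0.0717%). The count of 2 was 1 without PM 1, without PM 2, without non-PM 1, with another scaling of the libraries (RLE, the size factors of DESeq2, in edgeR) or with the replicate number as a block, and Adcy4 was the isoform lost in each. With the muscle score described below in the fit, 3 isoforms were higher (Adcy5, Adcy6 and Adcy7) and 1 was lower (Adcy9). Each of these isoforms had an adjusted p of 0.436 there (edgeR). The share of all genes passing the criterion was counted in the main fit only, so the 1.47% and 1.49% above do not apply to the other fits. The pathway lists that the study drew from these samples hold Adcy5 and Adcy6, so their direction here is not independent evidence.

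Adcy5 (gene 64532), the isoform prominent in heart and striatum, had the largest log2 fold change of the family. It stood at 27.0, 27.1 and 36.7 CPM (counts relative to the scaled library total) in PM 1 to 3 against 21.4, 20.03 and 20.2 CPM in non-PM 1 to 3. Every PM library lay above every non-PM library, as in 4.77% of all genes tested (4.91% had every PM library below), and the PM group had the wider spread because of PM 3. The difference was 0.56 ± 0.17 on the log2 scale (SE), a fold of 1.47 (edgeR unadjusted p = 0.0139). It passed the criterion with any single library left out, at 0.40 without PM 3 (edgeR unadjusted p = 0.043) and 0.63 without PM 1 as the extremes. When the fit also held a skeletal muscle score (the mean log2 CPM of 20 muscle genes), the value was 0.54 ± 0.19. Adcy5 overlaps long non-coding genes in the GRCr8 annotation, and how reads shared by overlapping genes were counted is not given.

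Adcy6 (gene 25289), the closest relative of Adcy5 and also abundant in heart, did not pass the criterion. It stood at 102.9, 96.3 and 113.1 CPM in PM 1 to 3 against 81.8, 89.0 and 64.8 CPM in non-PM 1 to 3. The groups did not overlap in CPM. In FPKM they did, since non-PM 2 (14.4 FPKM) lay above PM 2 (13.7 FPKM). The log2 fold change was 0.41 ± 0.18 (edgeR unadjusted p = 0.0614), or 0.27 without non-PM 3. It passed the criterion in DESeq2 (0.39, unadjusted p = 0.0329), with the muscle score (0.51 ± 0.17) and without non-PM 2 (0.51 ± 0.20). The gene overlaps Tuba1c in the GRCr8 annotation, so its counts carry the same uncertainty.

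Adcy4 (gene 54223) belongs to the isoforms stimulated by beta-gamma subunits and is known from endothelium among other tissues. It stood at 69.7, 58.2 and 46.3 CPM in PM 1 to 3 against 39.0, 41.3 and 47.1 CPM in non-PM 1 to 3. PM 3 lay just below non-PM 3, so the groups overlapped in CPM, while in FPKM the lowest PM library (12.7) lay above the highest non-PM library (12.2). The share of all genes without overlap in FPKM was not counted. The log2 fold change was 0.45 ± 0.19, a fold of 1.37 (edgeR unadjusted p = 0.0486). The value lay at the edge of the criterion. With RLE size factors in edgeR it was 0.43 (unadjusted p = 0.0633), in DESeq2 0.43 (unadjusted p = 0.0674) and with the muscle score in edgeR 0.47 (unadjusted p = 0.0554), none of which passed. Without PM 1 the log2 fold change was 0.30, and the call was also lost without PM 2 (0.45), non-PM 1 (0.38) or non-PM 2 (0.43). The 16 endothelial markers summed to 863 FPKM in PM 1, where Adcy4 was highest, to 526 and 548 in PM 2 and 3, and to 472, 576 and 419 in non-PM 1 to 3. Of these markers 15 had a log2 fold change above 0, and 2 were higher by the criterion, beside 49.5% and 1.47% of all genes tested. The part of endothelial content in the Adcy4 difference was not tested.

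Adcy7, the isoform best known from leukocytes and platelets, stood at 58.4, 50.4 and 61.9 CPM in PM 1 to 3 against 42.1, 54.9 and 33.9 CPM in non-PM 1 to 3. Non-PM 2 lay within the PM range. The log2 fold change was 0.38 ± 0.21, which did not pass the criterion. It was 0.58 ± 0.19 without non-PM 2 and 0.56 ± 0.18 with the muscle score, and it passed in both. Without non-PM 3 it was 0.21 ± 0.18. The 14 macrophage markers summed to 952 FPKM in non-PM 2 and 213 FPKM in non-PM 3. In FPKM these libraries had the highest and the lowest Adcy7 level (7.73 and 4.09), with PM 3 (7.67) just below non-PM 2. In CPM Adcy7 was higher in PM 1 and PM 3 than in non-PM 2. The macrophage sum was 530, 439 and 685 FPKM in PM 1 to 3 and 520 FPKM in non-PM 1. None of the 14 macrophage markers passed the criterion (edgeR), which called 1.47% of all genes tested higher and 1.49% lower. The part of macrophage content in the Adcy7 levels was not tested.

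Adcy2, first known from brain, was less clearly separated. It stood at 26.0, 34.8 and 38.7 CPM in PM 1 to 3 against 30.4, 26.9 and 22.8 CPM in non-PM 1 to 3. PM 1 lay among the non-PM libraries, and the log2 fold change of 0.31 ± 0.20 did not pass the criterion. It was 0.46 without PM 1, 0.19 without PM 3 and 0.20 without non-PM 3.

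Adcy3, the isoform of olfactory neurons and primary cilia, stood at 42.1, 34.8 and 49.99 CPM in PM 1 to 3 against 40.1, 38.1 and 23.6 CPM in non-PM 1 to 3. Only non-PM 3 lay outside the PM range. The log2 fold change was 0.32 ± 0.25 with all libraries but 0.10 without non-PM 3 and 0.18 without PM 3. Adcy3 overlaps Dnajc27 and Cenpo in the GRCr8 annotation, with the same uncertainty of counting. Adcy1 had 356, 243 and 239 counts in PM 1 to 3 and 161, 276 and 248 counts in non-PM 1 to 3. Its log2 fold change was 0.04 ± 0.29, and it was -0.20 without non-PM 1, the library with the fewest counts, and -0.07 without PM 1. Adcy8 had 37, 28 and 15 counts in PM 1 to 3 and 22, 65 and 14 counts in non-PM 1 to 3. Its log2 fold change of -0.54 ± 0.64 became 0.31 without non-PM 2, and at this depth no difference was detectable. Non-PM 2 was also the library with keratinocyte genes, whose 11 matched markers summed to 297.3 FPKM there and to 3.52 FPKM or less elsewhere. Whether the Adcy8 counts belong with that tissue was not tested.

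Adcy9, a widely expressed isoform that is also found in skeletal muscle, did not separate the groups. It stood at 18.5, 33.0 and 28.6 CPM in PM 1 to 3 against 26.0, 18.6 and 37.6 CPM in non-PM 1 to 3. The log2 fold change was -0.04 ± 0.32, with 0.25 without non-PM 3 and -0.25 without non-PM 2 as the extremes and 0.17 without PM 1. The skeletal muscle list summed to 43130 FPKM in non-PM 3 and 36480 FPKM in PM 2, the libraries with the highest Adcy9 CPM, then to 20540 in PM 3, 18530 in non-PM 1, 12630 in PM 1 and 8712 in non-PM 2. The Adcy9 CPM had the same order, except that PM 1 and non-PM 2 changed places by 18.5 against 18.6 CPM. In FPKM the order also differed at the top, with Adcy9 at 3.93 in PM 2 and 3.67 in non-PM 3. The muscle score was likewise higher in PM 2 (11.6) than in non-PM 3 (10.8). With the muscle score as a covariate the log2 fold change was -0.36 ± 0.13 and passed the criterion (edgeR unadjusted p = 0.0362, adjusted p = 0.436). The part of muscle content in the Adcy9 levels was not tested.

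**Figure D2:**
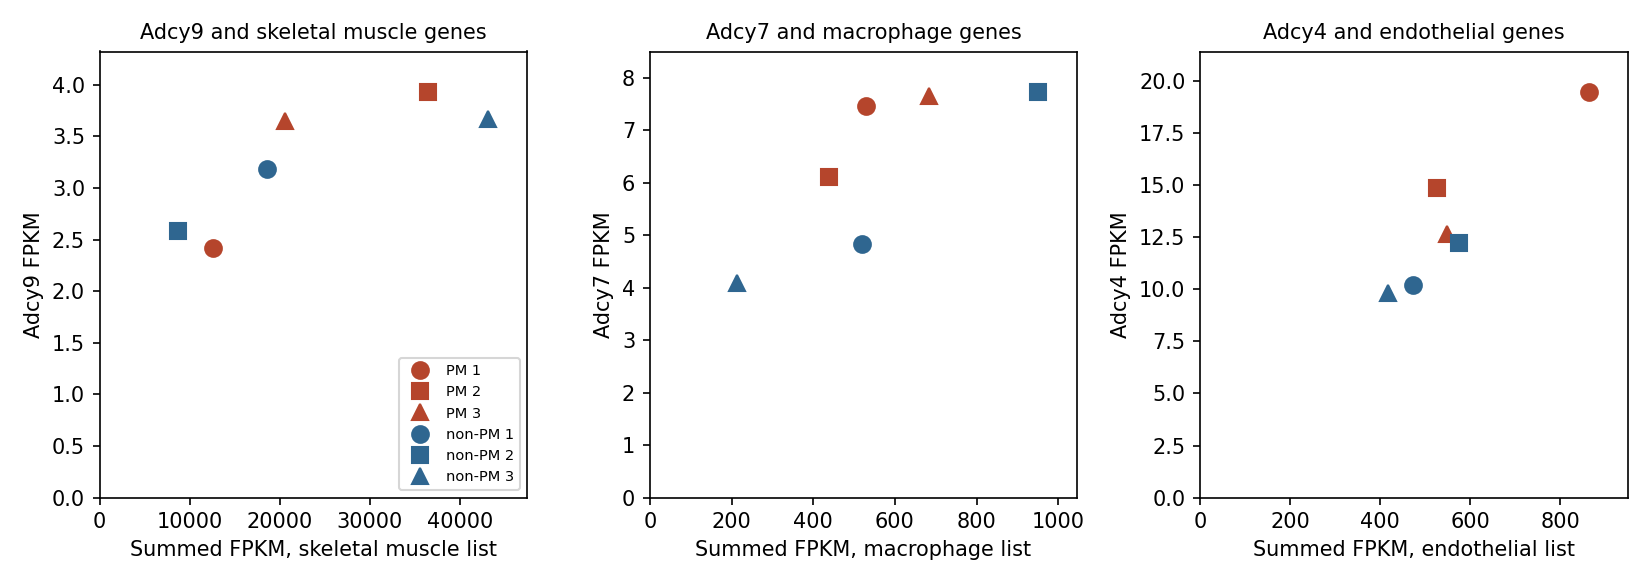
Level (FPKM) of Adcy9, Adcy7 and Adcy4 in each library against the summed FPKM of the skeletal muscle, macrophage and endothelial lists, with PM libraries in red, non-PM libraries in blue and marker shape for the replicate number. Adcy9 is lowest in the 2 libraries with the least muscle signal (PM 1 and non-PM 2), Adcy7 is lowest in non-PM 3 with 213 FPKM of macrophage genes, and Adcy4 is highest in PM 1 with 863 FPKM of endothelial genes.

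**Figure D3:**
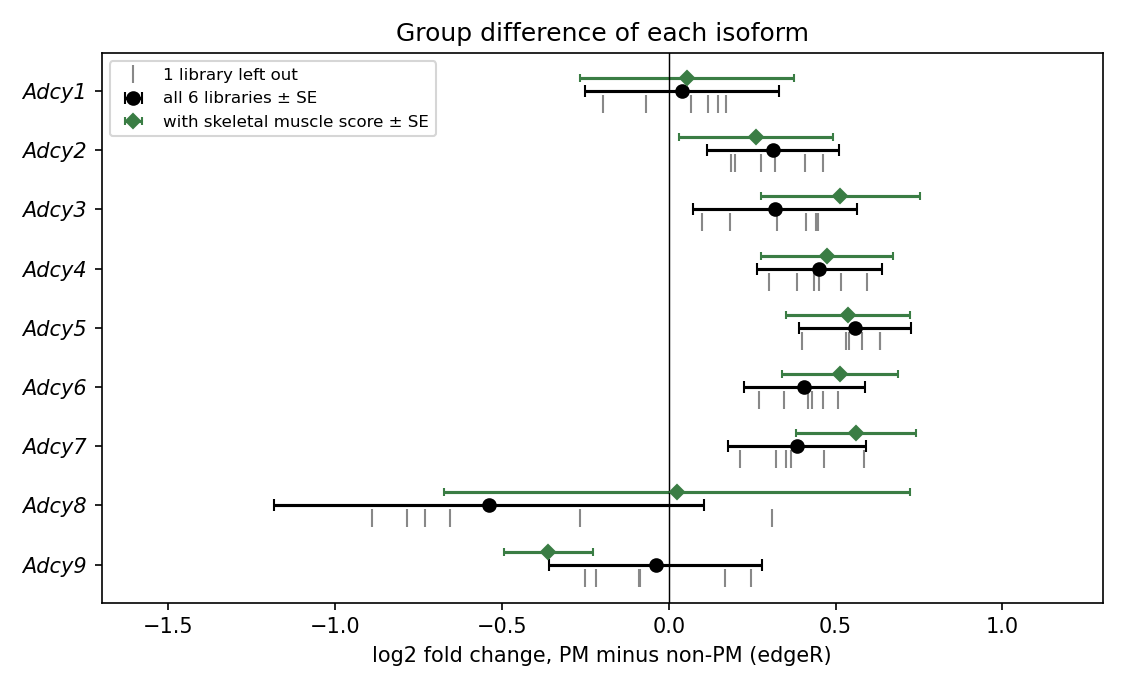
Log2 fold change (PM minus non-PM, edgeR) of each isoform over all 6 libraries (black circles, SE), with the skeletal muscle score in the fit (green diamonds, SE) and with 1 library left out (grey ticks). Adcy2 to Adcy7 stay above 0 throughout, Adcy1, Adcy8 and Adcy9 cross 0 when single libraries are left out, and Adcy9 moves from -0.04 to -0.36 with the score.

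The summed level of the 9 isoforms was higher in each PM library than in each non-PM library, while the groups overlapped in the share of every isoform. The sum was 65.5, 58.0 and 67.7 FPKM in PM 1 to 3 and 48.8, 57.0 and 36.5 FPKM in non-PM 1 to 3, a ratio of means of 1.34. PM 2 lay only just above non-PM 2. As counts relative to all counts of the library, without scaling, the groups overlapped, with 327.84 CPM in PM 2 and 336.58 in non-PM 2. When each library was divided by its scaling factor (TMM), the sums were 61.7, 60.1 and 64.4 in PM 1 to 3 and 48.2, 49.2 and 46.1 in non-PM 1 to 3, a ratio of 1.298, and the spread within groups was smaller. The members were chosen with earlier results in view, so no p-value is given for the sum.

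The share of each isoform in the family level removes the scaling of the library. Adcy6 made up 24.0 ± 1.08% of the family FPKM in the PM group and 23.6 ± 2.07% in the non-PM group (SD, n = 3). Adcy4 made up 24.7 ± 5.57% against 23.1 ± 3.33%, and was the first isoform in PM 1, PM 2 and non-PM 3 while Adcy6 was first in the other 3 libraries. Together these isoforms held between 43.9% (PM 3) and 52.9% (PM 1) of the family. Adcy5 held 8.39 ± 1.19% against 7.40 ± 0.522%, a difference of 0.989 percentage points (0.305 without PM 3) with overlapping groups. The Adcy9 share varied most among the abundant isoforms relative to its mean, from 3.69% in PM 1 to 10.1% in non-PM 3. Its FPKM varied least of the 9 isoforms, by 1.63-fold between the highest and lowest library. The family sum was lowest in non-PM 3 (36.5 FPKM). The groups overlapped in all 9 isoform shares and in the shares of the 3 regulatory classes that hold more than 1 isoform. Isoforms stimulated by beta-gamma subunits held 48.1 ± 3.79% in the PM group against 47.4 ± 2.23%, those inhibited by calcium and Gi 32.4 ± 2.25% against 31.0 ± 1.67%, and those stimulated by calcium and calmodulin 14.2 ± 1.87% against 14.7 ± 2.95% (SD, n = 3). Over these 12 shares the lowest two-sided exact permutation p was 0.3, for Adcy5, where 3 against 3 libraries allow none under 0.1. Differences of this size lay within the spread of 3 libraries per group.

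**Figure D4:**
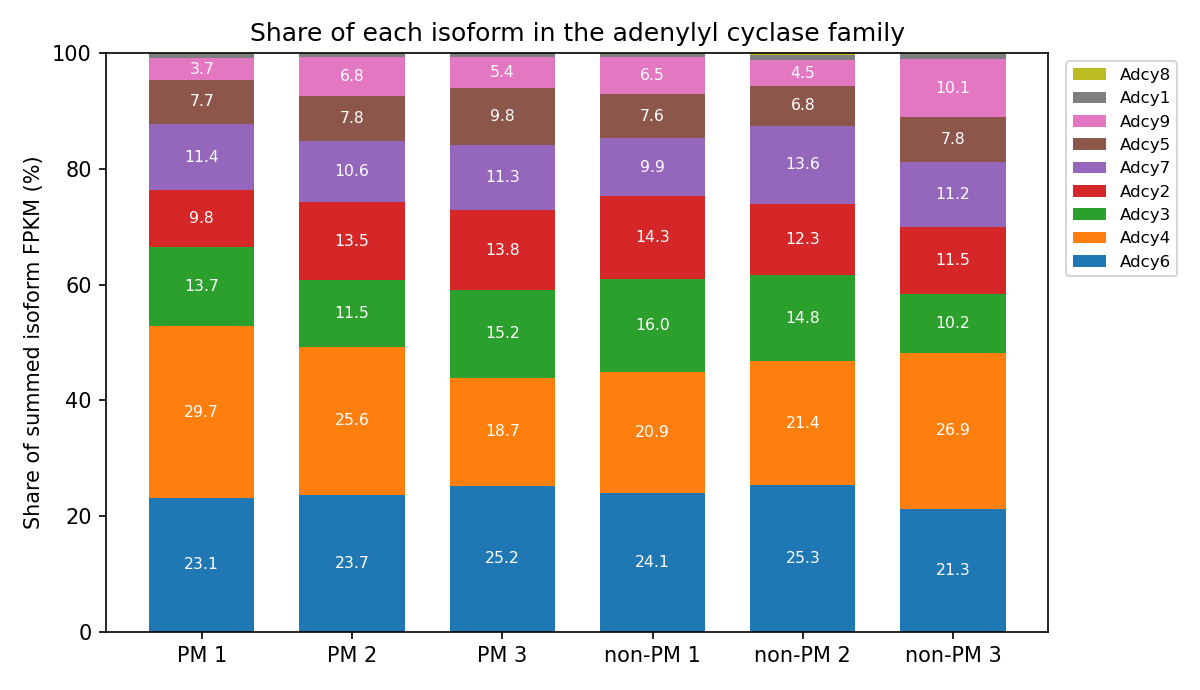
Share (%) of each isoform in the summed FPKM of the 9 isoforms, as stacked bars for each library, with the isoforms ordered by mean level from the bottom. Adcy6 and Adcy4 fill between 43.9 and 52.9% of every bar, and the bars of the PM and non-PM libraries overlap in every isoform, with Adcy9 largest in non-PM 3 (10.1%).

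The ratio of counts to FPKM holds a further measure that the group comparison did not use. For a gene with a single transcript this ratio, once scaled by library, was constant, with a median spread of 0.0245% between the highest and the lowest library over 2280 such genes. For genes with several transcripts it follows the mean length of the transcripts that the authors' assembly assigned. Adcy2 (1 transcript listed), Adcy4 and Adcy9 had spreads of 0.0473, 0.187 and 0.303%, so for these genes counts and FPKM differed by little more than the scaling of each library, which still moves values such as the Adcy4 overlap between groups. Adcy7, with 15 transcripts listed, had a relative length of 0.805 in non-PM 3 and between 0.979 and 1.06 in the other libraries. A shorter length raises FPKM relative to counts, and the difference in Adcy7 share (PM minus non-PM) was -0.476 percentage points in FPKM and 0.386 on counts. Adcy1, with 8 transcripts listed, had a relative length of 0.849 in PM 1 and 0.808 in PM 3 and between 0.991 and 1.012 in PM 2 and the non-PM libraries. Shorter transcripts were thus assigned to Adcy1 in 2 of 3 PM libraries. Of 7346 genes with several transcripts and at least 100 counts per library, 94.1% had a smaller spread than Adcy1 (25.3%) and 95.8% a smaller one than Adcy7 (31.7%). Adcy6 had a spread of 9.26%, and the lengths of Adcy3, Adcy5 and Adcy8 varied by 1.80 to 4.65%. These lengths depend on the assembly of short reads and were not tested between groups.

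**Figure D5:**
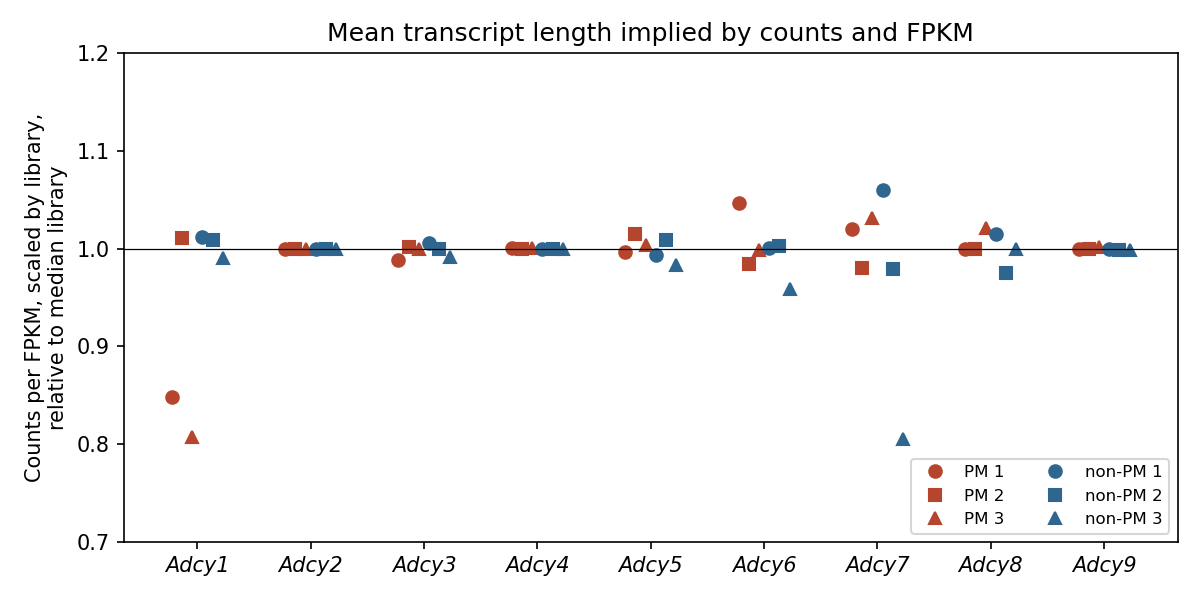
Counts per FPKM of each isoform, scaled by library and divided by the median library (a measure of mean transcript length, vertical axis from 0.7 to 1.2), in the 3 PM (red) and 3 non-PM (blue) libraries. Adcy2, Adcy4 and Adcy9 lie on 1, Adcy1 is at 0.849 and 0.808 in PM 1 and PM 3, and Adcy7 is at 0.805 in non-PM 3.

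Receptors and G proteins that act on adenylyl cyclases were described as lists. Of 25 tested receptors that couple to Gs and so raise cAMP, 3 were higher by the criterion, 0 were lower and 22 did not pass, with a median log2 fold change of 0.27 (edgeR). Over all genes tested 1.47% were higher and 1.49% lower, with a median of -0.004. Calcrl, the receptor of adrenomedullin and CGRP, stood at 16.0, 10.5 and 13.7 FPKM in PM 1 to 3 against 8.41, 10.1 and 6.58 FPKM in non-PM 1 to 3, and was 0.60 ± 0.16 higher on the log2 scale. It is carried by endothelium among other cells, beside the endothelial sums above. The histamine receptor Hrh2 had 81, 44 and 73 counts in PM 1 to 3 and 30, 18 and 17 counts in non-PM 1 to 3, a log2 fold change of 1.37 ± 0.39. The ACTH receptor Mc2r, which rodent fat cells carry, had 30, 39 and 64 counts in PM 1 to 3 and 0, 7 and 2 counts in non-PM 1 to 3. Its groups did not overlap in CPM, while 4.77% of all genes tested had every PM library above. The filter asks for enough counts in as many libraries as a group holds. Mc2r met it through the PM group, so its call is not support for a difference, and the count of 3 includes it. The 14 adipocyte markers summed to between 748 and 1324 FPKM in PM and between 601 and 875 FPKM in non-PM libraries. Of these markers 2 were higher by the criterion, beside 1.47% of all genes tested. The part of fat in the Mc2r difference was not tested. The most abundant Gs-coupled receptor was Pth1r, the receptor of parathyroid hormone, whose log2 fold change of 0.16 ± 0.79 (1.46 without non-PM 1, where it passed, and -0.29 without non-PM 3) stood beside values from 3.78 to 49.5 FPKM within the non-PM group.

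Of 26 tested receptors that couple to Gi and so lower cAMP, 3 passed as higher and 1 as lower, and 22 stayed under the criterion, with a median log2 fold change of 0.39, beside the same 1.47% and 1.49% over all genes. The apelin receptor Aplnr stood at 25.1, 19.0 and 15.3 FPKM in PM 1 to 3 against 11.01, 13.2 and 7.11 FPKM in non-PM 1 to 3, a log2 fold change of 0.86 ± 0.22. The adrenergic receptor Adra2a was 0.64 ± 0.19 higher on the log2 scale, with 7.94 FPKM on average in PM and 4.81 FPKM in non-PM libraries. The other called members were rare. The somatostatin receptor Sstr4 had 38 counts in the PM and 12 in the non-PM libraries together, and the opioid receptor Oprk1, the lower member, had 22 and 76. Sstr4 and Oprk1 met the filter on counts through the group where each was higher, so their calls are not support for a difference. The counts of 3 and 1 above include them. Sstr4 passed with non-PM 1 left out (1.79) but not with any other library left out (1.17 to 1.52), and Oprk1 did not pass without PM 1 (-2.13), PM 2 (-2.09), PM 3 (-1.95) or non-PM 3 (-1.37). Of the most abundant, the sphingosine phosphate receptor S1pr1 had a log2 fold change of 0.19 ± 0.20 (0.08 without PM 1) and the lysophosphatidic acid receptor Lpar1 of 0.37 ± 0.36 (0.09 without non-PM 3). Receptors that raise and receptors that lower cAMP thus both had members that were higher in the PM group. The pathway lists of the study also hold Calcrl, Hrh2, Adra2a, Aplnr and Oprk1 and were drawn from these samples, so these genes are not independent evidence.

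Neither the 16 G protein genes nor the 18 other regulators had a member past the criterion (edgeR, 537 of all genes at an unadjusted p under 0.05, DESeq2 with 13 past adjustment). Their median log2 fold changes were 0.11 and 0.04. Gnas, which encodes Gs alpha, was far more abundant than any cyclase, with 414.5, 337.8 and 336.7 FPKM in PM 1 to 3 and 423.1, 397.5 and 470.1 FPKM in non-PM 1 to 3. Its log2 fold change was -0.26 ± 0.29, and -0.04 without non-PM 3. The inhibitory subunit gene Gnai2 had a log2 fold change of 0.19 ± 0.28, which was -0.01 without non-PM 3. Calm2, which encodes calmodulin, the calcium sensor of Adcy1, Adcy3 and Adcy8, had a log2 fold change of 0.18 ± 0.19 (0.07 without PM 1).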

How the data were processed

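The series holds RNA-seq of 3 PM and 3 non-PM tendon samples. Per the labels and the study, libraries were made with a stranded mRNA kit, reads were checked with FastQC 0.11.7, trimmed with Trimmomatic 0.38 and aligned to Rnor_6.0 with HISAT2 2.1.0, and StringTie assembled transcripts. The deposited table gives whole-number read counts per gene, and the authors also computed FPKM per gene. Strand setting and treatment of reads with several matches are not given in the sources used here. In a later annotation (GRCr8, names only) Adcy3 overlaps Dnajc27 and Cenpo, and Adcy6 overlaps Tuba1c, so reads there may be shared.

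Columns were matched to titles by group and number. The labels name no animal. By the methods of the study 1 leg of each rat was operated on and 3 tendons of each group went to RNA-seq, so samples were taken as separate rats. The main test used edgeR 4.0.16 under R 4.3.3 (filterByExpr, TMM, two-sided quasi-likelihood test, group as only term) over 18134 genes, and p-values were adjusted by Benjamini-Hochberg over all of them. SE was derived as |log2 fold change| divided by the root of F. CPM are counts over the TMM-scaled total. Levels between genes were compared in FPKM only. Alternatives were RLE scaling, DESeq2 1.42.0, no filter, limma 3.58.1 on log2(FPKM + 1) and log2(FPKM + 0.1), a replicate block, a skeletal muscle score (mean log2 CPM of 20 genes) and leaving out each library. The main edgeR fit was run on simulated counts with a single dispersion for all genes, and the alternatives were not. No library pair was as alike as counting error alone would make it (lowest chi-square per degree of freedom 176.2). The members and lists were chosen with earlier results of these data known. Named genes were the 9 isoforms, Adcy10, per list of regulators the 2 most abundant genes and every gene past the criterion, and the 3 genes most alike in pattern to each of the 4 most abundant isoforms, of which 1 regulator is not reported here. Of the list symbols, Hcar1, Hcar2 and Trp63 were not matched. The number of per-sample columns left unused was 0. Exact permutation tests of shares were two-sided.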

Additional observations from a re-analysis of the deposited data

How the results depend on the processing

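Adcy2, Adcy3, Adcy4, Adcy5, Adcy6 and Adcy7 kept a log2 fold change above 0 under every alternative. Adcy5 passed the criterion under each of them, in some only just. The unadjusted p was 0.0493 with the replicate block (edgeR) and 0.043 without PM 3 (edgeR). In limma it was 0.0475 on log2(FPKM + 1) and 0.0431 on log2(FPKM + 0.1). No adjusted p of Adcy5 was under 0.05 in any fit. For Adcy1 (-0.20 to 0.17 with 1 library left out), Adcy8 (-0.89 to 0.31) and Adcy9 (-0.25 to 0.25) the direction turned without a single library. Adcy8 was at 0.024 with the muscle score, and Adcy9 at 0.055 and 0.067 in limma on log2(FPKM + 1) and log2(FPKM + 0.1). On log2(FPKM + 0.1) the median of all genes was 0.10, so fold changes on that scale are shifted upwards. The cause of these turns was not tested.

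The number of isoforms higher by the criterion was 2 in the main test, 1 with RLE scaling, 1 with a replicate block and 1 to 3 with 1 library left out. With the muscle score 1 isoform, Adcy9, was lower. Same-numbered samples did not deviate together (correlations of -0.17, -0.39 and -0.31). The labels give no pairing. Deviations from a mean of 3 libraries cannot show that none existed. Under the block 0 Gi-coupled receptors were lower. With 1 library left out, 3 to 5 Gs-coupled receptors were higher and 0 to 1 lower, 2 to 5 Gi-coupled receptors were higher and 0 to 2 lower, 0 to 1 G protein genes were higher, and 0 to 1 other regulators were lower. The share of all genes past the criterion was not counted in the alternative fits, so these counts have no background beside them.

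The summed FPKM ratio lay between 1.205 and 1.495 with 1 library left out. The difference in share, in percentage points, lay between -0.195 and 0.035 for Adcy1, -1.09 and 0.91 for Adcy2, -1.99 and 0.91 for Adcy3, -0.94 and 4.58 for Adcy4, 0.30 and 1.36 for Adcy5, -0.70 and 1.32 for Adcy6, -1.31 and 0.52 for Adcy7, -0.16 and -0.0043 for Adcy8 and -3.00 and -0.23 for Adcy9, and the Adcy7 share on counts was 0.386. For the classes it lay between -2.12 and 0.59 (calcium and calmodulin), -0.66 and 2.90 (beta-gamma) and 0.14 and 2.24 (calcium and Gi). Counts limit Adcy8 and Adcy10, and at 14 counts the rounding of counts alone moves the implied length.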

Other observations

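The soluble adenylyl cyclase Adcy10, which bicarbonate and calcium activate and which shares little with the membrane enzymes, was rare in the tendon. It had 77, 86 and 69 counts in PM 1 to 3 and 32, 93 and 40 counts in non-PM 1 to 3, so the groups overlapped. Its log2 fold change was 0.29 ± 0.46. Its mean level of 0.150 FPKM lay between those of Adcy1 and Adcy8.

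For each of the 4 most abundant isoforms, the genes with the most similar pattern of log2 CPM over the 6 libraries were sought among 11727 genes with a mean of at least 1 FPKM. Adcy6 was most alike to Zbtb33 (Pearson r = 0.997), Zfp945 (0.990) and Bmp2k (0.989). Adcy3 was most alike to Chsy1 (0.994), Zfp748 (0.994) and Apaf1 (0.993), and Adcy2 to Snx19 (0.992), Rbmx (0.988) and Phlpp2 (0.985). Adcy4 was most alike to Tecpr1 (0.981), Shank3 (0.969) and Hoxb5 (0.963). In all, 142 genes exceeded 0.95 for Adcy6 and 303 for Adcy3, against 7 for Adcy4 and 25 for Adcy2. How often such values arise by chance with 6 libraries was not computed. The correlations are a description of these libraries and say nothing of shared control.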
